A study of Mus musculus with 6 samples.

Results

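A control IgG pull-down from cultured mouse germ stem cells was set against the RNA that went into it, for all 22564 protein-coding genes of the deposited table. The comparison uses 4 of the 6 libraries of the study: 2 of IgG RIP and 2 of input. The other 2 libraries come from a pull-down of IGF2BP1, an RNA-binding protein, and serve here as a second pull-down. RIP (RNA immunoprecipitation) takes a protein out of a cell lysate with an antibody, and the RNA that comes along is sequenced. The labels give the same germ stem cell line for all 3 groups, with no genotype or allele named, in a stem cell medium with GDNF and FGF2 at 10 ng/ml each, and they name no batch. Whether the 2 libraries of 1 kind stem from different cultures is not stated, so the p-values rest on a spread between libraries that may be technical.

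An antibody of no chosen target pulls down RNA that sticks to the beads, to the antibody or to proteins that stick to them, and such a control is meant to show this background. Messenger RNAs differ in ways that could matter to such a pull-down: in length, in the proteins they carry and in the structures at their ends. mRNAs of ribosomal proteins and of several translation factors belong to the TOP class, which starts with a C followed by a run of pyrimidines. Replication-dependent histone mRNAs end in a stem-loop and carry no poly(A) tail. mRNAs of the mitochondrial genome are made and translated inside the organelle.

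The libraries held 2558673 and 2723451 fragments on these genes in IgG RIP and 2793425 and 2836942 in IGF2BP1 RIP, against 1639251 and 1693165 in input. Although IgG RIP was deeper than input, fewer genes had a fragment, at 13379 and 13096 in IgG RIP against 15047 and 15089 in input. Genes with exactly 1 fragment numbered 286 in each IgG RIP library, against 1366 and 1320 in the input libraries. The IgG RIP libraries also stood apart from each other. The biological coefficient of variation within a group, the spread between its libraries beyond counting noise, was 46.9% in IgG RIP and 7.70% in IGF2BP1 RIP, against 6.70% in input. Across the 11402 genes tested, Pearson's r of log2 CPM (normalized fragments, put on 1 library size) was 0.846 between the IgG RIP libraries, 0.981 between those of IGF2BP1 RIP and 0.971 between the inputs. Each IgG RIP library was closer to the input libraries, at 0.868 to 0.878, than to the other IgG RIP library. Its values with the IGF2BP1 RIP libraries were higher still, at 0.881 to 0.883. The spread was greatest for genes of few fragments. Of genes with a mean of 10 to under 30 fragments, 58.5% differed more than 2-fold between the IgG RIP libraries, against 7.63% between the input libraries. At a mean of 300 fragments or more these shares were 1.19% and 0.395%.

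**Figure D1:**
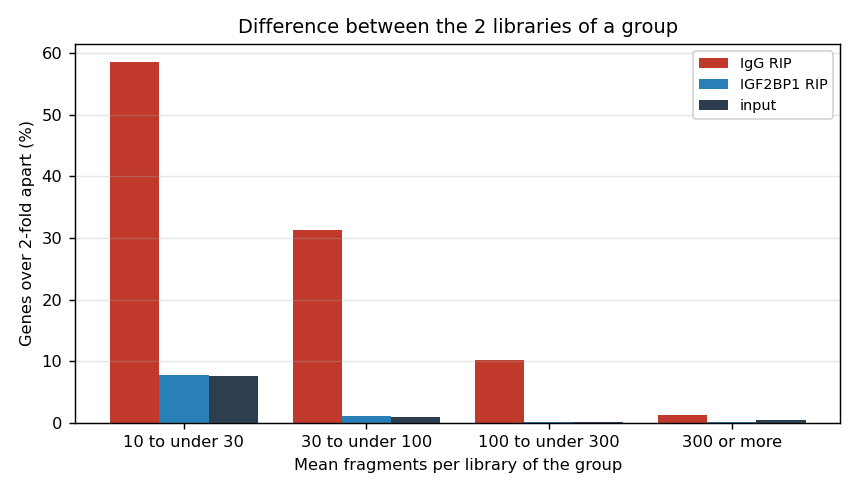
The bars give the percentage of genes whose 2 libraries of a group differ more than 2-fold, on the vertical axis, by the mean number of fragments per library, for IgG RIP, IGF2BP1 RIP and input. The IgG RIP bar is the highest at every level, at 58.5% for the fewest fragments and 1.19% for the most.

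Genes were called both higher and lower in IgG RIP than in input. Of 11402 genes tested, 124 were called higher (1.09%) and 137 lower (1.20%) at an adjusted p under 0.05 in the 4 libraries, and 45 of the higher and 68 of the lower genes changed at least 2-fold. The median log2 fold change was 0.89 among the higher and -0.998 among the lower genes, against 0.02 over all genes tested. Without adjustment 2303 genes had a p under 0.05. A model that also held the IGF2BP1 RIP libraries, which spread less, called 505 genes higher (4.19%) and 591 lower (4.90%) of 12053, all of the 124 and 137 among them. Both IgG RIP libraries lay at least 2-fold above both input libraries in 180 genes (1.58%) and at least 2-fold below them in 331 (2.90%). Of the 180 genes, 100 lie in the lowest of 10 classes of equal size by input level (at most 6.98 CPM), most of which passed the filter on low counts through IgG RIP. Leaving out 1 library moved the counts by more than 1.5 times. They were 71 higher and 75 lower without input replicate 1, 67 and 74 without input replicate 2, 2891 and 3015 without IgG RIP replicate 1, and 2729 and 2886 without IgG RIP replicate 2. With 1 IgG RIP library left, that library is assumed to vary like input, and the counts given below for single lists without an IgG RIP library stand beside these counts over 11597 and 11657 genes. Of the 63 called genes named by rule, 23 lost their call without input replicate 1, among them Csf2rb2, Nos1, Fcer1g, Svil, Rps2, Tmem176b, Ebag9, Gbas, Rnf128, Eif5a, Cycs, Ndufv2, Sf3b3, Snrpc, Cnot1, Setd1b, Copa, Ssr3, Insig1, Cxcl1 and Sparc. Without input replicate 2 the number was 24, with Klhl26, Ankrd26, Rpl15, Cd63 and Srebf2 in place of Rps2, Cycs, Copa and Ssr3. The split of the calls also moved with the scale: 47.5% of the calls were higher here, 59.4% by voom with weights by group (636 higher and 435 lower), and 96.6% on deposited FPKM (865 and 30), where the median over all genes was 0.66.

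Long mRNAs were on balance higher and short mRNAs lower in IgG RIP than in input. Transcript length was taken as a relative index, the deposited count of a gene over its FPKM, in 10 classes of equal size. The median log2 fold change was -0.35 in the class of shortest transcripts, 0.01 in the fifth and 0.27 in the class of longest ones. The longest class held 69 of the 124 higher and 6 of the 137 lower genes, the sixth class 1 and 22, and the shortest class 6 and 35. The median length index was 20.99 among the higher genes, 5.94 among the lower and 8.71 over all. Both IgG RIP libraries showed the order, with medians of -0.37 and -0.47 in the shortest and 0.23 and 0.28 in the longest class. Across 11397 genes, which are not independent, the rank correlation of length index and log2 fold change was 0.222, with depth and normalization shared by all points.

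Genes of the longest class also had more fragments, with a median of 76.3 CPM in input, against 29.4 CPM in the shortest. Genes of at least 100 CPM in input, 2668 in number, were therefore looked at alone. Of these, 17.2% were called higher in the longest class and 1.12% in the shortest, while 0.375% and 13.9% were called lower. The medians were 0.31 and -0.43. Without giant proteins, cytosolic and mitochondrial ribosomal proteins, nuclear respiratory chain genes and replication-dependent histones, the medians of the longest and shortest classes over all levels were 0.24 and -0.29. IGF2BP1 RIP shares its input libraries with this comparison and had medians of 0.01 in the longest and -0.54 in the shortest class. Directly against IGF2BP1 RIP, the median log2 difference of IgG RIP was 0.24 in the longest and 0.15 in the shortest class. The class of fewest input fragments is not read here, since its genes passed the filter on low counts mostly through IgG RIP.

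**Figure D2:**
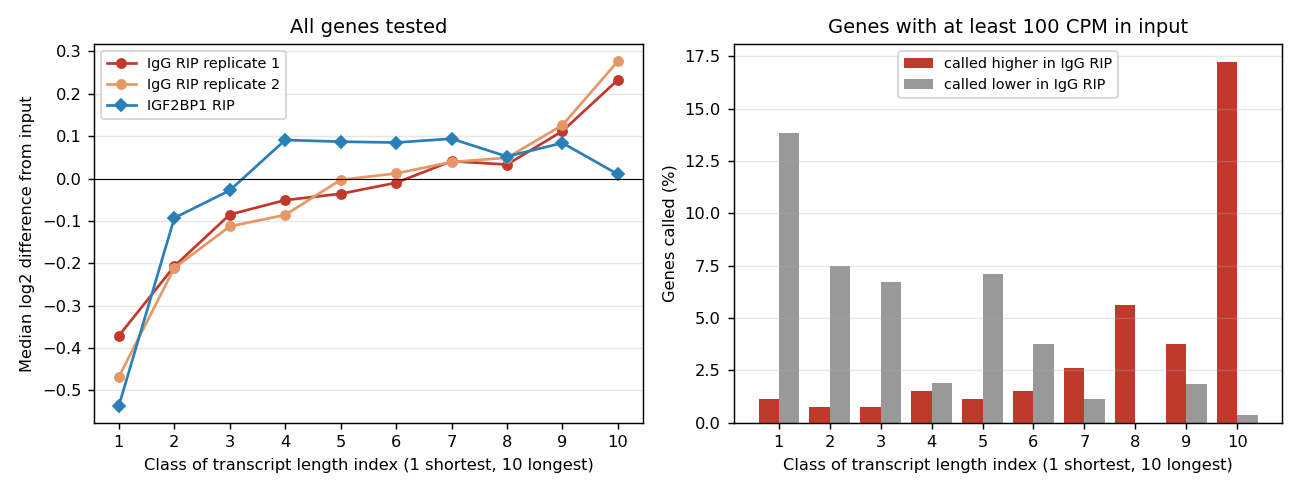
Left, the median log2 difference from input (vertical axis) by class of transcript length index, shortest to longest, for each IgG RIP library and for the mean of IGF2BP1 RIP; the IgG RIP medians run from -0.37 and -0.47 to 0.23 and 0.28. Right, the percentage of genes called higher or lower in IgG RIP than in input among genes of at least 100 CPM, where 17.2% of the longest class are higher and 13.9% of the shortest lower.

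Genes of giant proteins lay mostly above input. They are cytoskeletal linkers, motor heavy chains, ubiquitin ligases, lipoprotein receptors and chromatin scaffolds, and their coding sequences are among the longest in the genome. Of 57 entries tested, of 63 in the table, 25 were called higher and 0 lower (34 and 2 in the 6-library model). The list's median fold change (log2) was 0.70, with 0.60 in IgG RIP replicate 1 and 0.68 in replicate 2. Both IgG RIP libraries lay above both input libraries in 82.5% of the list, against 26.0% of all genes tested. The list took 4.001% and 4.02% of all fragments in IgG RIP and 2.14% and 2.19% in IGF2BP1 RIP, against 2.58% and 2.58% in input. With genes of a shared locus span left out before the fit, 22 of 44 were called higher. Without IgG RIP replicate 1 there were 46 higher and 4 lower calls, and without IgG RIP replicate 2 there were 44 and 4.

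Kmt2d (chromosome 15, 98831668 to 98871204), a methyltransferase of histone H3 at enhancers, had 997.2 and 1094 CPM in IgG RIP, against 433.5 and 441.3 CPM in input. The means were 1046 ± 68.5 and 437.4 ± 5.50 CPM (SD, n = 2 each). The groups did not overlap, and the log2 fold change was 1.27 ± 0.09 (SE, adjusted p = 0.0122). Rnf213 (chromosome 11, 119393099 to 119491235), a very large ubiquitin ligase, had 213.4 and 208.2 CPM in IgG RIP, against 86.20 and 90.03 CPM in input, a log2 fold change of 1.27 ± 0.15 (adjusted p = 0.0256). Plec, a linker of intermediate filaments, had 1064 and 874.3 CPM in IgG RIP, against 439.1 and 421.1 CPM in input, and its locus span is shared with another gene. Its log2 fold change was 1.19 ± 0.12 (adjusted p = 0.0195).

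Dync1h1 (chromosome 12, 110599630 to 110666945), the heavy chain of cytoplasmic dynein, had 2194 and 2081 CPM in IgG RIP, against 1067 and 1070 CPM in input (1.02 ± 0.07, adjusted p = 0.0122). Huwe1 (chromosome X, 151800806 to 151935417), a HECT-type ubiquitin ligase, had 3155 and 3154 CPM in IgG RIP, against 1840 and 1858 CPM in input (0.79 ± 0.06, adjusted p = 0.0122). Mdn1, a very large ATPase of ribosome assembly, had 2985 and 3599 CPM in IgG RIP, against 1975 and 1963 CPM in input (0.76 ± 0.09, adjusted p = 0.0270). The inputs of these genes lay closer together than their IgG RIP libraries, except for Huwe1. Ttn, the giant protein of the muscle sarcomere, was read in these cells too, at 272 and 307.3 CPM in IgG RIP, against 161.9 and 149.3 CPM in input (0.91 ± 0.13, adjusted p = 0.0395).

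The same genes were set against IGF2BP1 RIP, where 107 of 11679 genes (0.916%) were called higher in IgG RIP and 37 (0.317%) lower. Dync1h1 was higher in IgG RIP by 1.38 on the log2 scale (adjusted p = 0.0115), Mdn1 by 1.49 (0.0125), Rnf213 by 1.55 (0.0158), Kmt2d by 1.15 (0.0139), Huwe1 by 0.80 (0.0125) and Plec by 1.30 (0.0191). Ttn stood at 48.37 and 55.79 CPM in IGF2BP1 RIP, and was higher in IgG RIP by 2.48 (adjusted p = 0.0115). Over the list, IgG RIP had a median of 0.80 over IGF2BP1 RIP. Some members lay below input without passing the test. Akap9, a scaffold of the centrosome and Golgi, had 206.8 and 254.9 CPM in IgG RIP, against 325 and 324 CPM in input (-0.48 ± 0.14, adjusted p = 0.133). The kinetochore proteins Cenpe and Cenpf had log2 differences of -0.41 and -0.34 and Bod1l -0.58, with adjusted p from 0.0850 to 0.168.

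Chromatin regulators, a list of methyltransferases, demethylases, remodellers and related proteins, had 15 of 90 tested entries higher and 0 lower (25 and 0 in the 6-library model). Their median was 0.34. Of these 90, 5 are also in the list of giant proteins. Among the other 85, 11 were called higher and the median was 0.33. Leaving out a library gave 47 higher calls (without IgG RIP replicate 1), 54 (IgG RIP replicate 2), 10 (input replicate 1) or 9 (input replicate 2), with 8 and 10 lower calls in the first and second of these. Setd1b, a methyltransferase whose span is shared, had 179.7 and 150.6 CPM in IgG RIP, against 75.04 and 70.48 CPM in input (1.20 ± 0.18, adjusted p = 0.0413). In Kmt2b the IgG RIP libraries had 353.1 and 298.7 CPM, against 149.5 and 143.9 CPM in input (1.17 ± 0.14, adjusted p = 0.0262).

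The median of this list was 0.23 for IGF2BP1 RIP over input. Arid1a, the DNA-binding subunit of BAF remodellers, had 851.3 and 909.1 CPM in IgG RIP, 784.3 and 825.6 CPM in IGF2BP1 RIP and 464.5 and 483.3 CPM in input. It rose against input (0.91 ± 0.09, adjusted p = 0.0190), while its difference of 0.13 from IGF2BP1 RIP had an adjusted p of 0.468. Smarca4, the ATPase of the same remodellers, rose by 0.54 ± 0.08 against input (adjusted p = 0.0403) and stood at -0.04 against IGF2BP1 RIP (adjusted p = 0.852). The histone demethylase Kdm6b rose by 0.72 ± 0.09 (adjusted p = 0.0270), with 0.06 against IGF2BP1 RIP (adjusted p = 0.777).

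**Figure D3:**
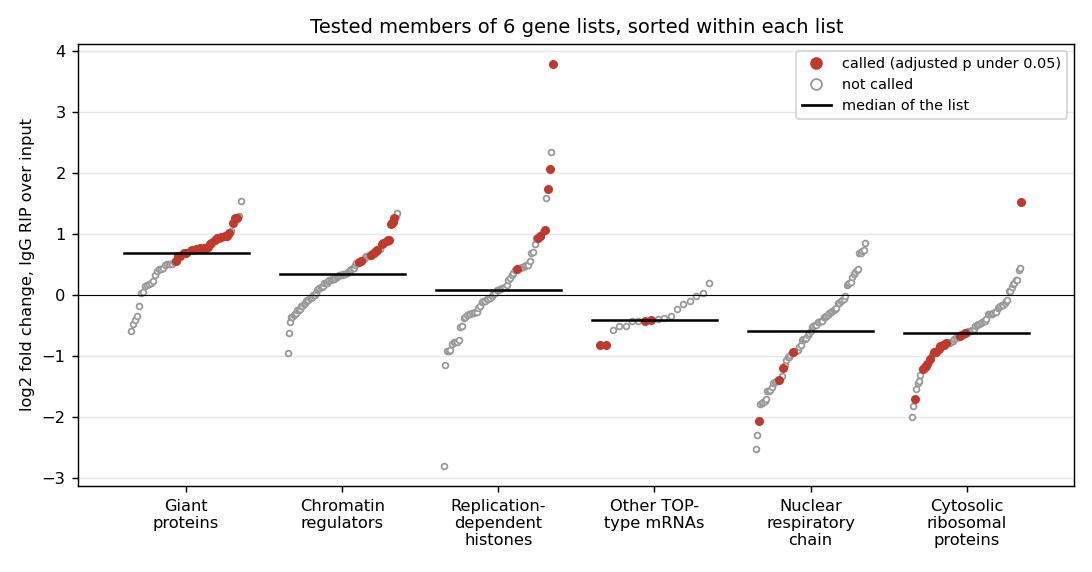
Each point is a tested member of 1 of 6 gene lists, sorted within the list, with its log2 fold change of IgG RIP over input on the vertical axis; filled points are called at an adjusted p under 0.05 and the black line is the median of the list. The giant proteins have a median of 0.70 with 25 members called higher, and the ribosomal proteins a median of -0.62 with 16 called lower and 1 higher.

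Most ribosomal protein genes, which have short mRNAs, lay below input. Of 79 tested, 16 were called lower and 1 higher (35 and 2 in the 6-library model), with a median of -0.62 on the log2 scale. Without IgG RIP replicate 1 or 2, 62 and 58 were called lower, and without input replicate 1 the call of Rps2 as higher was lost. The medians of the single libraries were -0.59 and -0.66, and both IgG RIP libraries lay below both input libraries in 78.5% of the list, against 28.6% of all genes tested. Proteins of the large subunit had 13 of 46 lower and a median of -0.67. Those of the small subunit had 3 of 31 lower, 1 higher and a median of -0.48. In IgG RIP replicate 1 the medians were -0.73 for the large and -0.45 for the small subunit. Replicate 2 had -0.67 and -0.69, so the lower median of the large subunit was seen in replicate 1 only. On uncentred FPKM 0 of the list were lower and 7 higher, with a median of -0.017, against 0.66 over all genes. The list took 2.13% and 1.93% of fragments in IgG RIP and 1.64% and 1.58% in IGF2BP1 RIP, against 2.90% and 2.88% in input. Many ribosomal protein genes have processed copies elsewhere in the genome, and how the authors' counting split reads between them is not known.

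To describe the starts of ribosomal protein mRNAs, the first transcribed bases were read from RefSeq's annotated starts (build GRCm38.p6). Each window holds 10 bases before the start and 20 from it on, and the first 5 transcribed bases are in capitals. The first 3 windows carry the pattern searched, a C with C or T at the rest of these 5 bases on the transcribed strand, and the other 4 do not.
Rpl15: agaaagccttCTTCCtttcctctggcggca
Rps15a: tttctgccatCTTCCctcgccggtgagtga
Rplp2: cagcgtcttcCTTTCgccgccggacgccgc
Rps23: cggctgggcgGGGCTtcccgcaatgccttg
Rpl4: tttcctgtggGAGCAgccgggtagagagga
Rplp0: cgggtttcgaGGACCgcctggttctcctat
Rps2: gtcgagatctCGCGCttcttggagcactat
They lie at chr14:18270967-18270996 (minus strand) for Rpl15, chr7:118116128-118116157 (minus) for Rps15a and chr7:141447641-141447670 (plus) for Rplp2. Those of Rps23, Rpl4, Rplp0 and Rps2 lie on the plus strand at chr13:90923112-90923141, chr9:64173377-64173406, chr5:115559457-115559486 and chr17:24720053-24720082. The first 6 are of genes called lower, and the last is of the ribosomal gene called higher. Annotated starts can lie off the start used in a cell, so a missing match says only that these letters are not at that position.

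Of 58 ribosomal protein genes with a window, 14 (24.1%) had the pattern at an annotated start, against 2.92% of 8907 tested genes with a window and 2.51% of all 32851 windows. The median log2 fold change was -0.63 in the 14 genes with the pattern and -0.59 in the 44 without. Among all tested genes with a window it was 0.013 in 260 with the pattern and 0.015 in 8647 without. Since annotated starts can lie off the start used, this split cannot show whether a TOP start goes with the loss. Rplp2, a protein of the ribosomal stalk, had 365.5 and 401.5 CPM in IgG RIP, against 751.6 and 725 CPM in input (-0.93 ± 0.10, adjusted p = 0.0221). Rpl4, a protein of the large subunit whose window lacks the pattern, had 1383 and 1388 CPM in IgG RIP, against 2257 and 2179 CPM in input (-0.67 ± 0.06, adjusted p = 0.0190). Rps6, whose window has it, had 689.1 and 767.4 CPM in IgG RIP, against 822.3 and 860 CPM in input (-0.19 ± 0.09, adjusted p = 0.305).

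The 3 lower members with the largest changes were Rpl15, Rpl32 and Rps23. Rpl15 shares its span and had 65.19 and 48.22 CPM in IgG RIP, against 139.5 and 231.6 CPM in input (-1.70 ± 0.30, adjusted p = 0.0494). Rpl32 had 247.6 and 186.2 CPM in IgG RIP, against 497.4 and 514.1 CPM in input (-1.21 ± 0.16, adjusted p = 0.0289). Rps23 had 362.8 and 276.6 CPM in IgG RIP, against 727.4 and 727.9 CPM in input (-1.17 ± 0.15, adjusted p = 0.0270). Rps2 went the other way, with 123.4 and 116.3 CPM in IgG RIP, 28.81 and 23.66 CPM in IGF2BP1 RIP and 35.35 and 48.57 CPM in input (1.53 ± 0.24 over input, adjusted p = 0.0422). IGF2BP1 RIP had a median of -1.01 over input for this list, and IgG RIP stood at a median of 0.48 over IGF2BP1 RIP.

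Other mRNAs counted in the TOP class, those of several elongation and initiation factors among them, had 4 of 18 lower, 0 higher and a median of -0.40. The median was -0.54 without IgG RIP replicate 1 and -0.25 without IgG RIP replicate 2. Npm1, a nucleolar chaperone, had 603 and 587.6 CPM in IgG RIP, against 1075 and 1050 CPM in input (-0.82 ± 0.08, adjusted p = 0.0190). Tpt1, the translationally controlled tumour protein, had 405.5 and 371.2 CPM in IgG RIP, against 694 and 686.5 CPM in input (-0.82 ± 0.10, adjusted p = 0.0256). Eef1a1, which delivers tRNAs to the ribosome, had 2896 and 2709 CPM in IgG RIP, against 3664 and 3901 CPM in input (-0.42 ± 0.06, adjusted p = 0.0421), and shares its span. Eef2, the translocase of the ribosome, was at 0.19 (adjusted p = 0.157). Translation initiation factors had 1 of 53 lower, Eif5a at -0.67 ± 0.10 (adjusted p = 0.0413), and a median of -0.20. Of 20 cytosolic aminoacyl-tRNA synthetases 1 was higher, Iars, with 496.3 and 468.8 CPM in IgG RIP, against 191.6 and 207.3 CPM in input (1.29 ± 0.11, adjusted p = 0.0188).

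Replication-dependent histone genes, the short and intronless genes that package DNA in S phase, did not move as 1 list. Of 67 tested, 7 were called higher and 0 lower (9 and 0 in the 6-library model), with a median of 0.09. All of these calls fell in 3 families: H2B with 4 of 17 higher (Hist1h2br, with few input fragments, among them) and a median of 0.69, linker histone H1 with 2 of 6 and a median of 0.40, and H4 with 1 of 13 and a median of 0.26. H2A (19 genes) and H3 (12 genes) had 0 calls and medians of -0.06 and -0.24. In IgG RIP replicate 1 the medians were 0.49 for H2B, 0.43 for H1, 0.07 for H4, -0.49 for H2A and -0.02 for H3. Replicate 2 had 1.00, 0.32, 0.35, 0.13 and -0.51 in the same order of families. The ranking of the families below H2B thus differed between the 2 libraries. Many copies within a family are alike in sequence, above all in H2A, H2B, H3 and H4, so the count of a single copy is uncertain. The list took 1.09% and 1.21% of fragments in IgG RIP and 0.553% and 0.547% in IGF2BP1 RIP, against 0.927% and 0.896% in input. The list had 28 higher and 17 lower calls without IgG RIP replicate 1 and 20 and 21 without replicate 2, beside 2891 and 3015, and 2729 and 2886, over all genes tested in those fits. Replacement histones, which are made outside S phase too, had 0 of 11 called and a median of -0.008, with H3f3b at -0.42 and H3f3a at -0.48 (adjusted p = 0.0951 and 0.0844).

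Hist1h4d had 1218 and 1537 CPM in IgG RIP, 406.9 and 390.9 CPM in IGF2BP1 RIP and 642.5 and 690 CPM in input. It was higher in IgG RIP by 1.06 ± 0.13 over input (adjusted p = 0.0256) and by 1.79 over IGF2BP1 RIP (adjusted p = 0.0125). Hist1h2bg had 533.1 and 843.3 CPM in IgG RIP, against 172.4 and 158.1 CPM in input (2.07 ± 0.23, adjusted p = 0.0236), and shares its span. Hist1h2bn had 187.8 and 350.3 CPM in IgG RIP, against 82.48 and 80.55 CPM in input (1.74 ± 0.30, adjusted p = 0.0494). In both H2B genes the second IgG RIP library was the higher one. Hist1h1c, a linker histone, had 1281 and 1275 CPM in IgG RIP, against 954.4 and 955.4 CPM in input (0.44 ± 0.07, adjusted p = 0.0460). Over the list, IgG RIP had a median of 1.01 over IGF2BP1 RIP, and IGF2BP1 RIP one of -1.02 over input.

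mRNAs of the mitochondrial genome differed among themselves. They made up 3.14% and 3.805% of fragments in IgG RIP and 4.85% and 5.36% in IGF2BP1 RIP, against 4.64% and 4.21% in input. Of 11 tested, 3 were lower and 0 higher, and the median was -0.33. The counts were 5 higher and 6 lower without IgG RIP replicate 1, 3 and 8 without IgG RIP replicate 2, 3 and 6 without input replicate 1, and 3 and 5 without input replicate 2. mt-Nd1, a core subunit of complex I, had 1977 and 2222 CPM in IgG RIP, 2000 and 2265 CPM in IGF2BP1 RIP and 5198 and 5239 CPM in input. It fell by 1.30 ± 0.07 against input (adjusted p = 0.00563) and stood at -0.02 against IGF2BP1 RIP (adjusted p = 0.938). mt-Cytb, of complex III, had 7076 and 7170 CPM in IgG RIP, 13823 and 15365 CPM in IGF2BP1 RIP and 12815 and 12328 CPM in input, and shares its span. It was lower in IgG RIP than in input (-0.81 ± 0.04, adjusted p = 0.00557) and than in IGF2BP1 RIP (-1.03, adjusted p = 0.0115). mt-Nd2 had 1832 and 1659 CPM in IgG RIP, against 2429 and 2369 CPM in input (-0.44 ± 0.07, adjusted p = 0.0460).

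mt-Nd5 did not pass, with 7169 and 7309 CPM in IgG RIP, against 6776 and 6714 CPM in input (0.12 ± 0.04, adjusted p = 0.173). Other mitochondrial genes differed between libraries of 1 group, inputs included. mt-Co3 had 1072 and 2469 CPM in IgG RIP, against 371.5 and 2271 CPM in input. mt-Atp8 had 441.6 and 8.97 CPM in IgG RIP, against 186.7 and 1066 CPM in input. mt-Co1 had 7837 and 14382 CPM in IgG RIP, against 16399 and 7759 CPM in input. Most mitochondrial entries share their span with another one, so the assignment of fragments among them is uncertain.

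Nuclear genes of the respiratory chain had 4 of 77 lower, 0 higher (20 and 2 in the 6-library model) and a median of -0.60. The lower calls numbered 45 and 44 without IgG RIP replicate 1 and 2, and 1 and 2 without input replicate 1 and 2. Both IgG RIP libraries lay at least 2-fold below both input libraries in 16 members, against 2.90% of all genes. Complex I had a median of -0.81 (36 genes), complex IV of -0.66 (12), complex V of -0.49 (15) and complex III of -0.49 (9), while the 4 genes of complex II had 0.23. Cox7a2l, which joins complexes III and IV, had 24.45 and 21.31 CPM in IgG RIP, against 97.36 and 97.14 CPM in input (-2.07 ± 0.24, adjusted p = 0.0256). Cycs, cytochrome c, had 59.76 and 59.44 CPM in IgG RIP, against 164.3 and 152.8 CPM in input (-1.40 ± 0.17, adjusted p = 0.0270). Ndufv2, of the complex I catalytic core, had 44.23 and 44.48 CPM in IgG RIP, against 97.36 and 107.2 CPM in input (-1.19 ± 0.21, adjusted p = 0.0494). The median of IGF2BP1 RIP over input was -0.80 for these genes. Mitochondrial ribosomal proteins had 1 of 76 lower, Mrps14, and a median of -0.17. Mrps14 had 32.21 and 31.03 CPM in IgG RIP, against 122.8 and 114.3 CPM in input (-1.89 ± 0.21, adjusted p = 0.0250).

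Most other lists had few or no calls, which does not show that their genes did not differ. Over all genes tested 1.09% were called higher and 1.20% lower, so 0 or 1 call in a short list is not read as a result about it. Chaperones and splicing proteins had a larger share called lower, and mRNA decay factors a larger share called higher. Calls also grew more frequent with input level. The fifth of 10 classes by input level had 0.175% higher and 0.439% lower, the highest class 6.22% and 8.15%. Median input was 104.4 CPM for chaperones, 177.8 for splicing proteins and 87.9 for decay factors, against 37.9 over all genes. The larger shares are therefore not read as a result about these lists. Zfp zinc fingers had 0 of 277 called and a median of 0.11, solute carriers 0 of 176 and 0.11, proteasome subunits 0 of 49 and -0.13, cell cycle regulators 0 of 48 and 0.13, and kinesins 0 of 33 and 0.30. Glycolysis genes had 0 of 20 called and a median of -0.17. Of 25 chemokines and cytokines tested 1 was lower, Cxcl1, a neutrophil attractant, with 22.89 and 24.30 CPM in IgG RIP, against 77.52 and 73.44 CPM in input (-1.66 ± 0.25, adjusted p = 0.0414). Splicing proteins and hnRNPs had 3 of 66 lower, 1 higher and a median of -0.21. Among them Snrpc, of the U1 particle, was lower by -1.26 ± 0.22 (adjusted p = 0.0488), and Sf3b3, of the U2 particle, was higher by 0.76 ± 0.13 (adjusted p = 0.0488). Chaperones had 4 of 66 lower, among them Dnaja1, a co-chaperone of Hsp70, with 159.5 and 157.4 CPM in IgG RIP, against 368.4 and 367.2 CPM in input (-1.20 ± 0.11, adjusted p = 0.0190). mRNA decay factors had 2 of 54 higher, and both have long transcripts: Smg1, the kinase of nonsense-mediated decay, at 0.66 ± 0.09 (adjusted p = 0.0363), and Cnot1, the scaffold of the deadenylase complex, at 0.55 ± 0.10 (adjusted p = 0.0494).

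Secretory (59 tested), lysosomal (30) and sterol synthesis genes (22) had 1 gene called in each direction and medians of -0.07, 0.04 and 0.07. Copa, of the COPI coat, was higher at 0.84 ± 0.12 (adjusted p = 0.0334) and Ssr3, of the translocon, lower at -1.06 ± 0.13 (adjusted p = 0.0256). Ctsd, the protease cathepsin D, had 3176 and 3574 CPM in IgG RIP, against 2241 and 2281 CPM in input (0.59 ± 0.07, adjusted p = 0.0263). Cd63, a membrane protein of late endosomes, had 56.65 and 47.47 CPM in IgG RIP, against 140.2 and 158.1 CPM in input (-1.50 ± 0.20, adjusted p = 0.0289). Srebf2, the activator of sterol synthesis, was higher at 0.73 ± 0.10 (adjusted p = 0.0304), and Insig1, which holds it back, lower at -0.63 ± 0.10 (adjusted p = 0.0443).

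**Figure D4:**
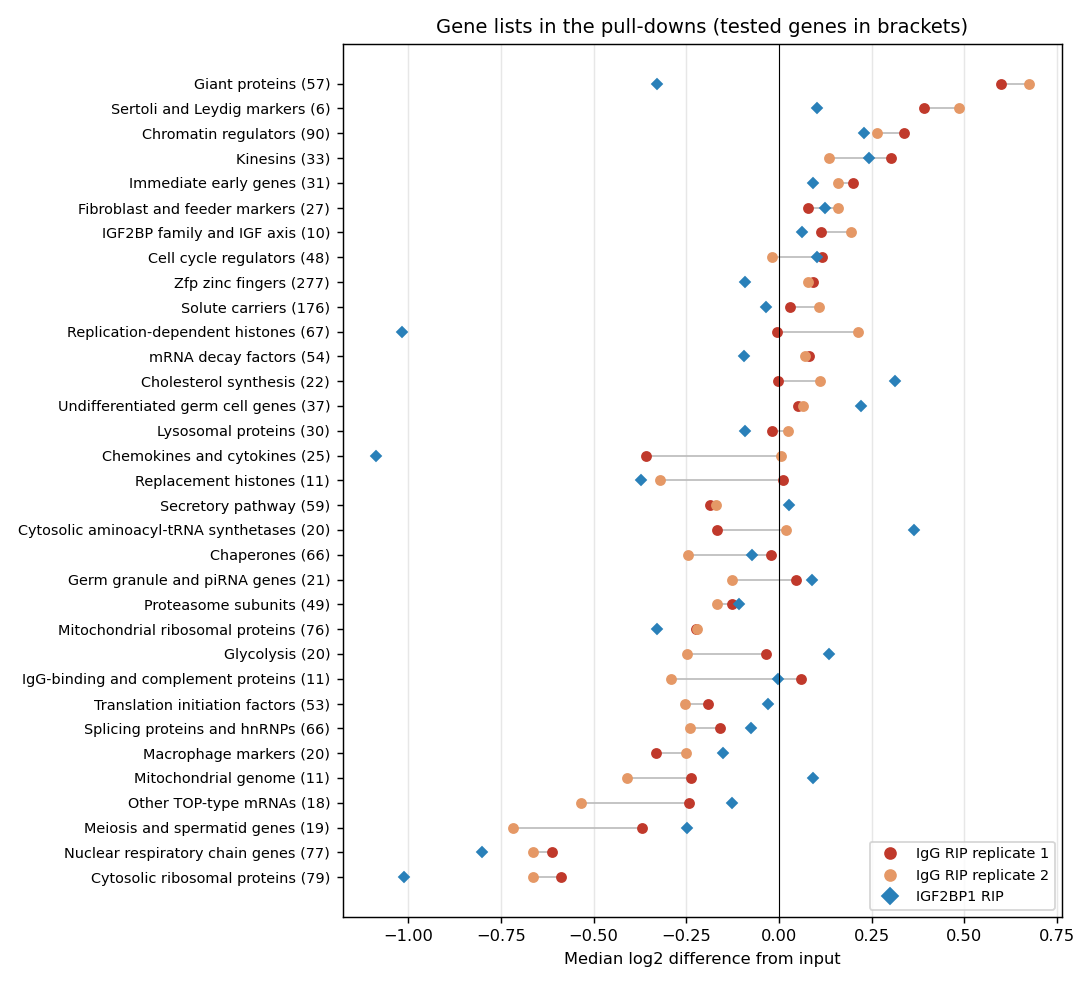
Each row is a gene list with its number of tested genes, and the points give its median log2 difference from input in IgG RIP replicate 1, IgG RIP replicate 2 and IGF2BP1 RIP. Giant proteins lie at the top, at 0.60 and 0.68 in IgG RIP and -0.33 in IGF2BP1 RIP, and ribosomal proteins at the bottom, at -0.59, -0.66 and -1.01.

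Of the 124 higher genes 54, and of the 137 lower genes 43, belonged to any of the 33 lists. The share of all genes tested that belong to a list is not given here, so these counts are not read as a result. Tagln2 (chromosome 1), an actin-binding protein, had 289.1 and 342.8 CPM in IgG RIP, 116 and 96.75 CPM in IGF2BP1 RIP and 89.92 and 89.44 CPM in input. It was higher by 1.83 ± 0.15 over input (adjusted p = 0.0168) and by 1.57 over IGF2BP1 RIP (adjusted p = 0.0215). Csf2rb2, a receptor chain for interleukin-3 in the mouse, had 70.23 and 62.80 CPM in IgG RIP, against 17.36 and 14.22 CPM in input (2.09 ± 0.29, adjusted p = 0.0353). Gltp, a glycolipid transfer protein, had 172.3 and 250.1 CPM in IgG RIP, against 79.38 and 67.52 CPM in input (1.54 ± 0.23, adjusted p = 0.0403). Egr3, an immediate early transcription factor, had 158.3 and 188.8 CPM in IgG RIP, against 55.81 and 59.23 CPM in input (1.61 ± 0.18, adjusted p = 0.0256), and was the only call among 31 immediate early genes. Scamp3, Nos1, Svil and Tmem176b also met the rule for naming, with log2 fold changes of 1.79, 1.65, 1.56 and 1.51. The rule also named Hist1h2br, with 44.23 and 97.56 CPM in IgG RIP, against 2.48 and 7.70 CPM in input (3.79). Its input lies in the lowest of the 10 classes, where most genes passed the filter through IgG RIP, so nothing is read from its call. Some of these have short transcripts, with a length index of 4.07 for Tagln2 and 5.70 for Gltp.

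Fcer1g, the gamma chain that carries the signal of Fc receptors in immune cells, had 109.4 and 92.33 CPM in IgG RIP, 27.74 and 25.78 CPM in IGF2BP1 RIP and 38.45 and 30.21 CPM in input. It was higher over input (1.57 ± 0.25, adjusted p = 0.0436) and over IGF2BP1 RIP (1.92, adjusted p = 0.0305). It was the only call among 11 tested genes of IgG-binding and complement proteins, whose median was -0.17. The Fc receptors Fcgr3 and Fcgr2b had log2 differences of -0.38 and -0.39, with adjusted p of 0.380 and 0.559. Fcgr4 had 0.63 (adjusted p = 0.609), and Fcgr1 and Fcgrt, which share their locus span with other genes, had 0.55 and 0.03 (adjusted p = 0.713 and 0.981).

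**Figure D5:**
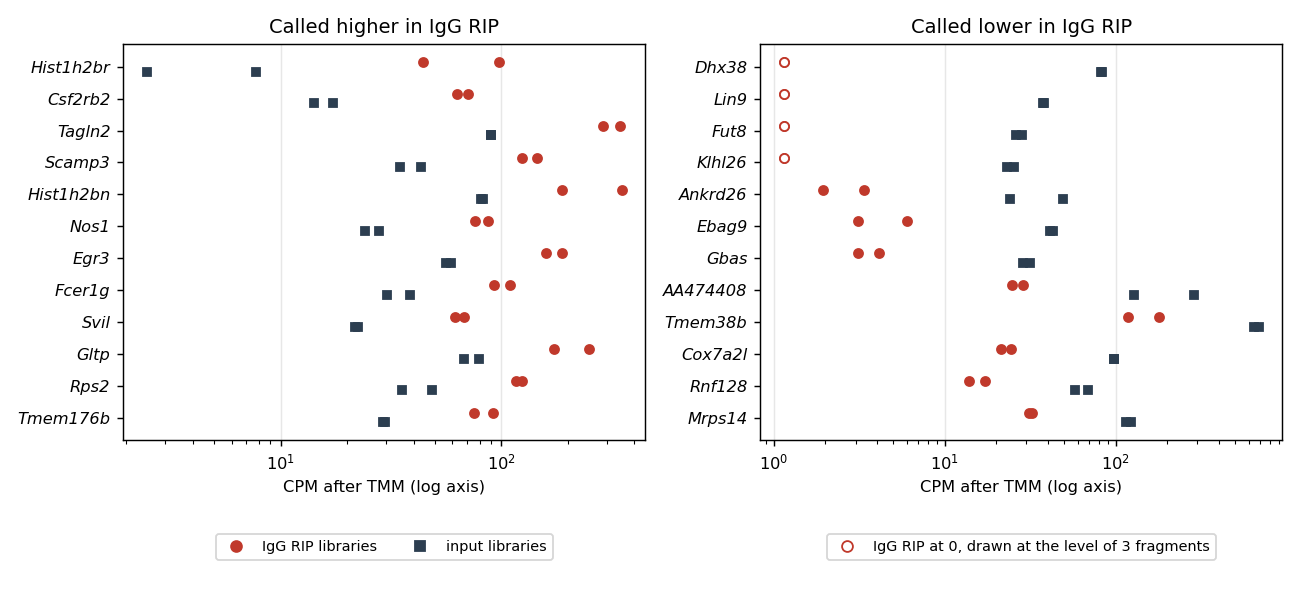
CPM on a log axis for the 12 genes named by rule in each direction, with 1 point for each IgG RIP library (above) and each input library (below) of a gene; open circles are IgG RIP libraries at 0, drawn at the level of 3 fragments. As the rule asks, both IgG RIP libraries lie on 1 side of both inputs in every gene.

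Some genes well covered in input had no fragment in IgG RIP. Of 8622 genes with at least 20 fragments in both inputs, 30 were at 0 in each IgG RIP library, with 10 at 0 in both, and 0 were at 0 in an IGF2BP1 RIP library. Of 8988 genes with at least 20 fragments in both IgG RIP libraries, 6 were at 0 in an input and 0 in both. Dhx38, an RNA helicase of splicing, had 0 and 0 fragments in IgG RIP, 281 and 300 in IGF2BP1 RIP, against 133 and 138 in input. Taking 3 fragments per library as the limit that a count of 0 allows, which covers counting error only, it was at least 71.8-fold lower in IgG RIP than in input (adjusted p = 0.0145). Lin9, a subunit of the DREAM complex of cell cycle genes, had 0 and 0 fragments in IgG RIP, against 61 and 63 in input, and was at least 32.9-fold lower (adjusted p = 0.0256). Fut8, the core fucosyltransferase, and Klhl26 were at least 23.8-fold and 21.2-fold lower (adjusted p = 0.0303 and 0.0357). In 40 genes only 1 IgG RIP library was at 0. Kank2 had 0 and 412 fragments in IgG RIP, against 151 and 146 in input, and Ulk1, a kinase that starts autophagy, 0 and 218 in IgG RIP, against 100 and 96 in input.

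Of the other genes named by rule as lower, Tmem38b, a potassium channel of the endoplasmic reticulum, had 117.6 and 178.7 CPM in IgG RIP, 32.01 and 31.43 CPM in IGF2BP1 RIP and 685.3 and 643.2 CPM in input. It was lower than input (-2.15 ± 0.20, adjusted p = 0.0190) and higher than IGF2BP1 RIP (2.23, adjusted p = 0.0305). Ebag9 had 3.10 and 5.98 CPM in IgG RIP, against 42.79 and 41.46 CPM in input (-3.18 ± 0.48, adjusted p = 0.0413). Rnf128, a ubiquitin ligase, had 17.07 and 13.83 CPM in IgG RIP, against 68.84 and 58.04 CPM in input (-2.02 ± 0.30, adjusted p = 0.0413). Ankrd26, Gbas and AA474408 were at -3.75, -3.02 and -2.93, and the 2 inputs of AA474408 differed, at 286.5 and 128.5 CPM.

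The lists of germ line and IGF axis genes are short. Over all genes tested 1.09% were called higher and 1.20% lower, so 0 or 1 call in such a list is not read as a result about it. Of 37 tested genes of undifferentiated germ cells 1 was lower: Dazl, an RNA-binding protein of germ cells, with 794.3 and 662.4 CPM in IgG RIP, against 1187 and 1129 CPM in input (-0.65 ± 0.11, adjusted p = 0.0479). Germ granule and piRNA genes had 0 of 21 called and a median of -0.09. Among 19 tested meiosis and spermatid genes, with a median of -0.49, Sycp1, of the synaptonemal complex, was lower (-1.29 ± 0.11, adjusted p = 0.0169), with 205.3 and 225.4 CPM in IgG RIP, against 532.1 and 534.8 CPM in input. Stag3, the meiotic cohesin, was higher (0.81 ± 0.11, adjusted p = 0.0289). Igf2bp1 itself had 394.6 and 450.1 CPM in IgG RIP, against 369.6 and 355.4 CPM in input (0.24 ± 0.11, adjusted p = 0.306). Without IgG RIP replicate 1 its log2 fold change was 0.31. The IGF2BP family and IGF axis had 0 of 10 called and a median of 0.14. Igf2, the growth factor whose mRNA gave the IGF2BP family its name, had 756.3 and 758.1 CPM in IgG RIP, 256.4 and 250.4 CPM in IGF2BP1 RIP and 731.2 and 755.8 CPM in input. It stood at 0.04 ± 0.08 over input (adjusted p = 0.832) and was higher in IgG RIP than in IGF2BP1 RIP by 1.58 (adjusted p = 0.0115).

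The label of the cells was checked against markers. All 14 germ stem cell markers had fragments in both inputs, and their summed level was 3635 and 3476 CPM in IgG RIP, against 3961 and 3824 CPM in input. Markers of other cells were read too. All 10 fibroblast or feeder markers were, with sums of 3438 and 4121 CPM in IgG RIP, against 3351 and 3318 CPM in input. So were 10 macrophage markers, with sums of 2991 and 3553 CPM in IgG RIP, against 3671 and 3662 CPM in input. Most of the macrophage sums is 1 gene, Lyz2, with 2452 and 2929 CPM in IgG RIP, against 3137 and 3123 CPM in input. The sums therefore do not compare the amounts of cell types. Of 10 Sertoli and Leydig markers 4 had fragments in both inputs, and Cyp17a1, Cyp11a1, Amh and Cldn11 were at 0 in both. The wider lists had 1 of 20 macrophage genes higher (Fcer1g), 1 of 27 fibroblast or feeder genes lower (Sparc) and 0 of 6 Sertoli and Leydig genes called. Their medians were -0.29, 0.19 and 0.47. The last median is not read. Its 6 genes had a median of 6.22 CPM in input, within the lowest of the 10 classes by input level, where most genes passed the filter through IgG RIP. Sparc, a matrix protein, was lower (-0.72 ± 0.12, adjusted p = 0.0443), and the part of such cells in the results was not tested. In bulk RNA, marker levels do not give the number of cells of a type.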

How the data were processed

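RIP-seq libraries of IgG RIP, input and IGF2BP1 RIP (2 each) were analysed from 1 table of gene values. The deposited count columns were read as estimated counts of fragments times 1 step per library: 92.8% to 94.4% of values above 0 are whole multiples of the step, within 0.01. The steps were divided out and the values rounded. The deposited FPKM columns, scaled by the authors, were used in alternatives and for the length index (median of count over FPKM in libraries with at least 10 fragments). FastQC, cutadapt 1.9.3 and the build mm39 are named, per the submitters' processing notes. For aligner and counting tool, no name is given in the sources used here. A match of 20874 genes by ID to GRCm38 showed 99.909% overlapping their position there, so coordinates are read as GRCm38. Among the genes, 5875 share their locus span with another gene, and 5353 are at 0 in all libraries.

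Main test: edgeR 4.0.16 (R 4.3.3; TMM, filterByExpr, quasi-likelihood) on the 4 IgG RIP and input libraries, Benjamini-Hochberg over all genes tested, called at an adjusted p under 0.05. Only these libraries entered because IGF2BP1 RIP spreads less. limma 3.58.1 and DESeq2 1.42.0 served in alternatives. The test was checked on simulated data. Named genes were the 12 largest called changes in each direction (at least 20 CPM in the higher group, IgG RIP libraries on 1 side of both inputs, unshared span), up to 3 called members in each direction of each of 33 lists, or the 2 most abundant members where none was called, and Igf2bp1; other list members were named after their values were seen. The comparison and the lists were chosen with earlier results of these data known. Lists were described by counts and medians, without a test. The values of 1 gene that met the rule are not reported here.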

Additional observations from a re-analysis of the deposited data

How the results depend on the processing

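The 137 lower and 124 higher calls were 591 and 505 in the 6-library model, 582 and 557 by DESeq2, 345 and 308 with at least 50 fragments in 2 libraries, 97 and 79 without a filter on low counts, and 435 and 636 by voom with weights by group. On log2 FPKM they were 30 and 865 (pseudocount 0.1) or 30 and 827 (pseudocount 1), where the median over all genes was 0.66 and 0.59. Centred on each library's median, FPKM gave 0 and 0 calls with limma, with 1966 genes at an unadjusted p under 0.05. Leaving out 1 library gave 67 to 2891 higher and 74 to 3015 lower calls. The causes were not tested. With the replicate number as a block there were 204 higher and 220 lower calls, and all main calls were kept. The numbers pair no libraries by the labels, and the deviations of same-numbered libraries correlated at 0.0068. Giant proteins had 19 to 46 members higher when 1 library was left out, ribosomal proteins 12 to 62 lower and the respiratory chain 1 to 45 lower. On uncentred FPKM (pseudocount 0.1, then 1) several medians turned: other TOP-type mRNAs 0.25 and 0.25, translation initiation factors 0.46 and 0.46, mitochondrial genome 0.33 and 0.33, mitochondrial ribosomal proteins 0.37 and 0.38, IgG-binding and complement proteins 0.48 and 0.38, nuclear respiratory chain genes 0.008 and 0.008, proteasome subunits 0.51 and 0.50, splicing proteins and hnRNPs 0.49 and 0.49, glycolysis 0.45 and 0.41, macrophage markers 0.34 and 0.33, meiosis and spermatid genes 0.19 and 0.19. So did Eef1a1 (0.11 and 0.11), mt-Nd2 (0.20 and 0.20), Srsf9 (0.50 and 0.49), Hnrnpf (0.11 and 0.11), Ssr3 (0.12 and 0.12) and Insig1 (0.017 and 0.016). All of these lie below the 0.66 and 0.59 of all genes. Ribosomal proteins had 0 lower and 7 higher calls there, with medians of -0.017 and -0.017. Centred FPKM turned Igf2bp1 (-0.14) and the medians of Zfp zinc fingers (-0.034) and of the IGF2BP family and IGF axis (-0.068). Without IgG RIP replicate 1 the median of cell cycle regulators was -0.025. Without input replicate 1, 23 of the 63 called named genes lost their call, and without input replicate 2, 24. Of genes with 10 to under 30 fragments, 58.5% differed over 2-fold between the IgG RIP libraries, against 7.63% between the inputs at the same fragment numbers.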
